A study of Mus musculus with 15 samples.

Results

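Nodal, its extracellular antagonists Lefty1 and Lefty2, its co-receptor Tdgf1 (Cripto), the activin receptors Acvr1b and Acvr2b, and the intracellular inhibitors Smad7 and Skil were examined in mouse embryonic stem (ES) cells from which components of the culture medium had been taken away. These 8 genes were chosen by name, with earlier results of these data known. All 8 were found on the array with 1 probe set each, and they stand among 19937 genes tested. RNA from 5 groups of 3 samples was hybridised to 15 Affymetrix arrays of whole-transcript design, with 1 colour. The 2iLIF group was in long-term culture with the GSK3 inhibitor CHIR99021 at 3 µM, the MEK inhibitor PD0325901 at 1 µM and the cytokine LIF. The remaining groups were taken 24 h after LIF had been removed. Both inhibitors stayed in the medium of the 2i group, CHIR99021 at 3 µM stayed in that of the CHIR group, PD0325901 at 1 µM in that of the PD03 group, and neither in that of the DMSO group. All groups were of the same line, adapted to culture in both inhibitors (2i), which carries a biotin and triple FLAG tag knocked into Ctnnb1, the beta-catenin gene, together with the biotin ligase BirA. Every group therefore shares the tagged allele, and no untagged line was compared. The DMSO cells had been in 2i before withdrawal, so a level higher in an inhibitor group than in DMSO may be a level that was kept. The 2iLIF group had no withdrawal. In 2iLIF minus 2i, LIF and the withdrawal step with its 24 h therefore cannot be told apart.

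Nodal is a secreted ligand of the TGF-beta superfamily. It is cleaved by proprotein convertases and binds type I and type II activin receptors together with the co-receptor Cripto, after which Smad2 and Smad3 are phosphorylated, join Smad4 and act in the nucleus with partners such as Foxh1. Nodal signalling induces Nodal itself and its antagonists Lefty1 and Lefty2, which form a feedback loop, and it induces Smad7 and Skil, which restrain the pathway inside the cell. Mouse ES cells produce these components, and in the embryo the same pathway patterns the epiblast and sets left-right asymmetry.

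Promoters of 4 of the 8 genes (Nodal, Tdgf1, Acvr1b and Acvr2b) were matched by symbol in the RefSeq promoter table of build GRCm38.p6, which spans 250 bases before to 50 bases after each gene's start. The promoters of Nodal and Acvr1b are shown because these genes stood above DMSO in every inhibitor group. The Nodal window is chr10:61417722-61418021 on the plus strand and the Acvr1b window is chr15:101173822-101174121 on the plus strand, each written 5′ to 3′, with capitals for a match to a TCF/LEF motif.
Nodal: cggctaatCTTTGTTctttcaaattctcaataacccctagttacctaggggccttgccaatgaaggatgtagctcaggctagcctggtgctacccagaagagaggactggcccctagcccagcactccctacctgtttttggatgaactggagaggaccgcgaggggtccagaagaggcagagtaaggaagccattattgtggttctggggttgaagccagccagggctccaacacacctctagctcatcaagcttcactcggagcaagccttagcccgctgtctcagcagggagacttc
Acvr1b: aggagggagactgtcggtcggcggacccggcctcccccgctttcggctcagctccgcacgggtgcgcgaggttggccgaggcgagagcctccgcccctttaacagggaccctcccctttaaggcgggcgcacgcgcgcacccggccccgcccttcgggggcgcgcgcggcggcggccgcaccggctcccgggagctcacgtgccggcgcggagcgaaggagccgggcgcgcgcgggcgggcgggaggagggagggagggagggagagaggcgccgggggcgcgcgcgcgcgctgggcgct
Both strands were searched for the TCF/LEF motifs CTTTGAT and CTTTGTT, the FOXH1 motif AATNCACA and the SMAD motif CAGACA, which do not overlap in any hit. The Nodal window held CTTTGTT once, with its first base 242 bases before the start, and held none of the other motifs. CTTTGTT was present in 5.85% of the 32851 promoters in the table, CTTTGAT in 3.73%, AATNCACA in 3.60% and CAGACA in 21.0%. No match was found in the windows of Acvr1b, Tdgf1 and Acvr2b. The Acvr1b window had 51 CpG sites and 79.7% G and C, against 5 CpG sites and 54.0% in the Nodal window and medians of 7 and 52.7% over the table. These matches describe the letters of the window and not binding.

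The arrays carried the signals of ES cells and the labelled treatments. Means of Pou5f1, Sox2, Nanog, Zfp42, Dppa5a and Esrrb lay between 9.82 and 13.15 on the log2 RMA scale in all groups, while of 7 fibroblast markers 3 (Dcn, Lum and Postn) had means between 4.80 and 5.94, below the mark of 6 used here for low signal. The other 4 (Col1a1, Col1a2, Col3a1 and Thy1) lay above that mark in every group, between 6.89 and 7.77. The log2 of the summed fibroblast list of 7 genes ranged from 9.42 to 9.62 over the 2iLIF arrays, from 9.47 to 9.66 over 2i, from 9.43 to 9.52 over CHIR, from 9.48 to 9.61 over PD03 and from 9.45 to 9.64 over DMSO. Axin2, a Wnt target, averaged 9.36, 9.19 and 9.31 in 2iLIF, 2i and CHIR, against 7.66 and 7.86 in PD03 and DMSO. Dusp6, an ERK target, averaged 9.48, 9.29 and 9.34 in 2iLIF, 2i and PD03, against 10.41 and 11.06 in CHIR and DMSO. Socs3, a STAT3 target, averaged 9.00 in 2iLIF and between 7.36 and 7.77 in the groups without LIF. The log2 of the summed ES list ranged from 14.83 to 14.87 over the 2iLIF arrays, from 14.78 to 14.81 over 2i, from 14.63 to 14.65 over CHIR and from 14.74 to 14.75 over PD03, against 14.40 to 14.54 over DMSO. Of the 6, Nanog, Sox2, Zfp42 and Esrrb were lowest in DMSO, as Nodal and the Lefty genes were. Dppa5a was lowest in CHIR (12.90, against 12.97 in DMSO), and Pou5f1 averaged 12.49 to 12.52 in the other groups, against 12.54 in DMSO. The part of these markers in the results was not tested. Whether the arrays of a group are of separate cultures is not stated in the labels. The p-values therefore rest on the spread among these arrays alone, a spread that may be technical, and 3 arrays per group limit the precision. No sample stood apart: the SD of an array's genes about their group means was between 0.047 and 0.073.

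Nodal, the ligand, was high in every group that kept an inhibitor and low in DMSO. Its log2 signal was 10.27, 10.36 and 10.23 in 2iLIF, 10.35, 10.25 and 10.35 in 2i, 9.98, 9.99 and 10.02 in CHIR, and 9.85, 9.86 and 9.91 in PD03, against 8.74, 8.75 and 8.69 in DMSO. The 3 DMSO arrays lay below the other 12, and the arrays of 2iLIF and 2i overlapped. Either inhibitor alone left Nodal more than 2-fold above DMSO, by 1.27 ± 0.04 in CHIR (SE, 2.41-fold, adjusted p = 7.83e-12) and by 1.15 ± 0.04 in PD03 (2.21-fold, adjusted p = 3.36e-11), with p-values from limma adjusted over all genes. With both inhibitors the difference was 1.59 ± 0.04 (3.02-fold, adjusted p = 3.53e-13). In bulk RNA, fewer cells expressing a gene and less RNA per cell cannot be told apart. The 2i group was in turn 0.32 ± 0.04 above CHIR (adjusted p = 8.95e-05) and 0.45 ± 0.04 above PD03 (adjusted p = 1.34e-06). CHIR and PD03 were closer to each other, at 10.00 ± 0.02 and 9.87 ± 0.03 (SD, n = 3 each). That difference of 0.12 ± 0.04 passed (adjusted p = 0.0365), but not without CHIR replicate 1, 2 or 3 (adjusted p = 0.0598, 0.0785 and 0.107) or without PD03 replicate 1 or 2 (adjusted p = 0.109 and 0.107). With both inhibitors present, 2iLIF minus 2i was -0.03 ± 0.04 (95% interval -0.12 to 0.06, adjusted p = 0.743).

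**Figure D1:**
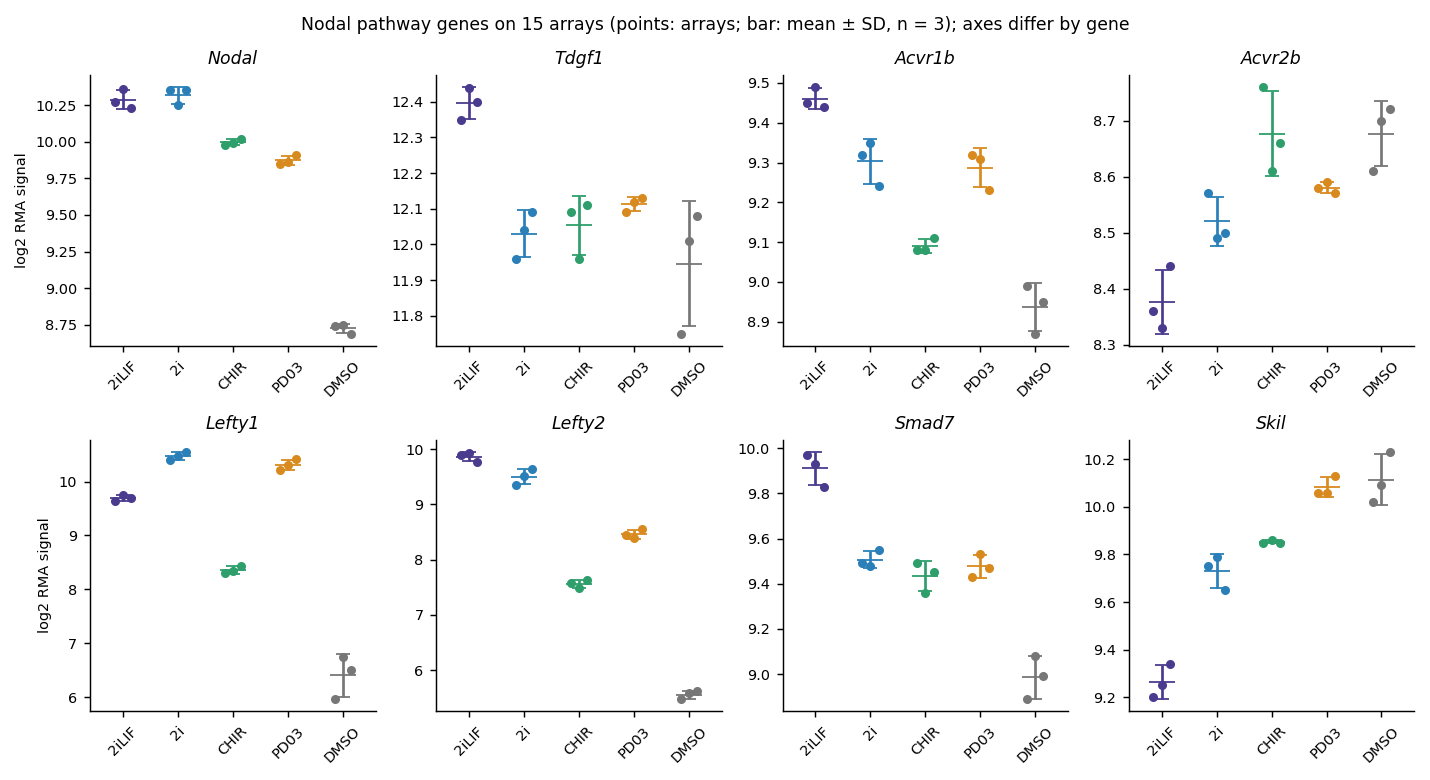
Log2 RMA signal (vertical axis, scaled separately for each gene) of the 8 genes on the 15 arrays, with groups from left to right as 2iLIF, 2i, CHIR, PD03 and DMSO. Points are arrays and bars are the mean ± SD (n = 3). Nodal, Lefty1, Lefty2, Acvr1b and Smad7 are lowest in DMSO, while Skil and Acvr2b are lowest in 2iLIF.

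Lefty1, a secreted antagonist of Nodal that ES cells produce in response to it, had the highest difference from DMSO of all genes in PD03 and in 2i, and differed more with PD0325901 than with CHIR99021. Its log2 signal was 9.63, 9.75 and 9.69 in 2iLIF, 10.40, 10.48 and 10.54 in 2i, 8.30, 8.35 and 8.43 in CHIR, and 10.21, 10.30 and 10.41 in PD03, against 5.97, 6.74 and 6.51 in DMSO. No arrays overlapped between groups except those of 2i and PD03. Relative to DMSO, Lefty1 was higher by 3.90 ± 0.13 in PD03 (SE, 14.9-fold, adjusted p = 1.40e-11) and by 4.06 ± 0.13 in 2i (16.7-fold, adjusted p = 4.37e-12), rank 1 of the 19937 genes in each. In CHIR the difference was 1.95 ± 0.13 (3.86-fold, adjusted p = 2.68e-08), rank 12. Lefty1 was higher in 2i than in CHIR by 2.11 ± 0.13 (4.33-fold, adjusted p = 4.60e-08), while 2i minus PD03 gave 0.16 ± 0.13 (95% interval -0.11 to 0.44, adjusted p = 0.468). DMSO replicate 1 was the lowest array, at 5.97, and without it the differences from DMSO were 1.73 in CHIR, 3.68 in PD03 and 3.84 in 2i. If the DMSO signal of Lefty1 is in part background, its folds against DMSO are lower bounds.

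Lefty2, the other Lefty antagonist, differed with each inhibitor and between 2iLIF and 2i. Its log2 signal was 9.89, 9.93 and 9.77 in 2iLIF, 9.36, 9.51 and 9.64 in 2i, 7.57, 7.48 and 7.63 in CHIR, and 8.44, 8.39 and 8.55 in PD03, against 5.48, 5.58 and 5.62 in DMSO. The 5 groups formed an order of 2iLIF, 2i, PD03, CHIR and DMSO with no overlap between neighbours. Against DMSO, Lefty2 was higher by 2.00 ± 0.07 in CHIR (SE, 4.01-fold), by 2.90 ± 0.07 in PD03 (7.47-fold) and by 3.95 ± 0.07 in 2i (15.4-fold), and the highest limma adjusted p of the 3 was 1.31e-11. In PD03 and in 2i it ranked 2 of all genes, after Lefty1. The DMSO arrays were below 6, as were 28.2% of all genes by their DMSO mean, so these folds are lower bounds if that signal is background. Unlike Lefty1, Lefty2 was also higher in 2i than in PD03, by 1.05 ± 0.07 (2.07-fold, adjusted p = 3.45e-08).

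The Lefty genes differed in opposite directions between 2iLIF and 2i. In 2iLIF minus 2i, Lefty1 was lower by -0.78 ± 0.13 (SE, 1.72-fold, adjusted p = 0.000573), and Lefty2 was higher by 0.36 ± 0.07 (1.28-fold, adjusted p = 0.00221). The log2 difference of Lefty1 minus Lefty2 within an array was -0.27, -0.18 and -0.08 in 2iLIF, against 1.03, 0.96 and 0.90 in 2i. It averaged 0.80 ± 0.08 in CHIR and 1.85 ± 0.07 in PD03, against 0.85 ± 0.34 in DMSO (SD, n = 3 each). Lefty1 and Lefty2 are close paralogs, and how far their probes share target sequence was not tested. The level of this difference depends on the probes, so only its change between groups is read. That change was -1.14 in 2iLIF minus 2i, -0.88 in 2i minus PD03, 1.00 in PD03 minus DMSO and 0.17 in 2i minus CHIR, each with no overlap of arrays. By a two-sided exact permutation test each of these had p = 0.1, the smallest that 3 arrays against 3 allow (0.15 adjusted over 6 comparisons). In CHIR minus DMSO and 2i minus DMSO the change in this difference was -0.05 and 0.12, and the arrays overlapped (exact p = 0.8 and 0.7).

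**Figure D2:**
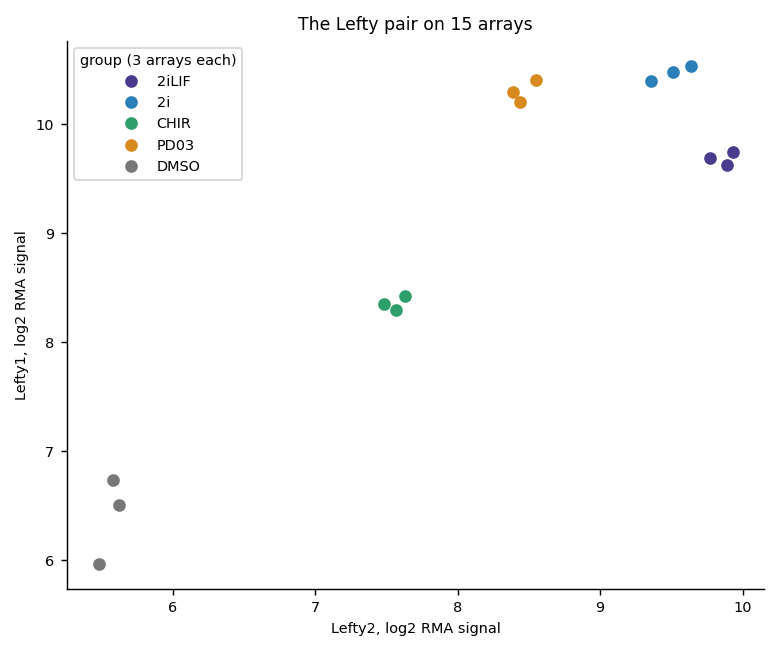
Log2 RMA signal of Lefty1 (vertical axis) against Lefty2 (horizontal axis) on the 15 arrays, coloured by group. The 2iLIF arrays lie to the right of and below the 2i arrays, and the PD03 arrays have Lefty1 values like those of 2i with lower Lefty2 values.

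Receptors and the co-receptor differed far less than the ligand and its antagonists. Tdgf1, which encodes the co-receptor Cripto, had log2 signals of 12.35, 12.44 and 12.40 in 2iLIF, 11.96, 12.04 and 12.09 in 2i, 12.09, 11.96 and 12.11 in CHIR, and 12.09, 12.12 and 12.13 in PD03, against 11.75, 12.01 and 12.08 in DMSO. The 2iLIF arrays were above all others, by 0.36 ± 0.07 over 2i (SE, 1.29-fold, adjusted p = 0.00173). None of the inhibitor comparisons passed for Tdgf1. Its difference was 0.10 in CHIR minus DMSO (95% interval -0.04 to 0.25), 0.17 in PD03 minus DMSO (0.02 to 0.31, adjusted p = 0.115) and 0.09 in 2i minus DMSO (-0.06 to 0.23). Without DMSO replicate 3, PD03 minus DMSO passed at 0.23 (limma adjusted p = 0.0343).

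Acvr1b, the type I receptor also known as Alk4, was higher in each inhibitor group than in DMSO. On the log2 scale it read 9.45, 9.49 and 9.44 in 2iLIF, 9.32, 9.35 and 9.24 in 2i, 9.08, 9.08 and 9.11 in CHIR, and 9.32, 9.31 and 9.23 in PD03, against 8.99, 8.87 and 8.95 in DMSO. The groups with PD0325901 were above CHIR, and 2i and PD03 overlapped. The difference from DMSO was 0.35 ± 0.04 in PD03 (SE, adjusted p = 1.46e-05), 0.37 ± 0.04 in 2i (adjusted p = 4.92e-06) and 0.15 ± 0.04 in CHIR (adjusted p = 0.0126). The CHIR call was lost without CHIR replicate 3 (adjusted p = 0.0504) or DMSO replicate 2 (0.0706). In 2iLIF minus 2i it was higher by 0.16 ± 0.04 (adjusted p = 0.0172), a call lost without 2iLIF replicate 2 (0.0768) or 2i replicate 3 (0.0899).

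Acvr2b, a type II activin receptor, ran the other way by a small margin. The arrays gave 8.36, 8.33 and 8.44 in 2iLIF, 8.57, 8.49 and 8.50 in 2i, 8.76, 8.61 and 8.66 in CHIR, and 8.58, 8.59 and 8.57 in PD03, against 8.61, 8.70 and 8.72 in DMSO. It was lower in 2i than in DMSO by -0.16 ± 0.05 (SE, adjusted p = 0.0186) and lower in 2i than in CHIR by -0.15 ± 0.05 (adjusted p = 0.0439). The call against DMSO was lost without 2i replicate 2 or 3 (adjusted p = 0.0723 and 0.0606) and without DMSO replicate 2 or 3 (0.0629 and 0.0754). The call against CHIR was lost without 2i replicate 2 or 3 (0.136 and 0.131) and without CHIR replicate 1 or 3 (0.171 and 0.0861). In 2iLIF minus 2i the difference was -0.14 ± 0.05 (adjusted p = 0.0589), and it passed without 2iLIF replicate 3 (0.0384). No inhibitor taken alone gave a call against DMSO, with 95% intervals of -0.10 to 0.10 in CHIR and -0.19 to 0.00 in PD03.

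Smad7, which blocks Smad phosphorylation at the receptor, took 3 levels. Its log2 signal was 9.97, 9.93 and 9.83 in 2iLIF, 9.49, 9.48 and 9.55 in 2i, 9.49, 9.36 and 9.45 in CHIR, and 9.43, 9.53 and 9.47 in PD03, against 8.89, 9.08 and 8.99 in DMSO. The 2i, CHIR and PD03 arrays overlapped, below 2iLIF and above DMSO. Smad7 was higher than in DMSO by 0.44 ± 0.05 in CHIR (SE, adjusted p = 1.60e-05), by 0.49 ± 0.05 in PD03 (adjusted p = 6.76e-06) and by 0.52 ± 0.05 in 2i (adjusted p = 1.81e-06). Keeping the other inhibitor as well gave no call, at 0.07 ± 0.05 in 2i minus CHIR (95% interval -0.04 to 0.19) and 0.03 ± 0.05 in 2i minus PD03 (-0.08 to 0.14). In 2iLIF it was above 2i by 0.40 ± 0.05 (1.32-fold, adjusted p = 6.94e-05).

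Skil (SnoN), a nuclear protein that represses Smad complexes and is itself induced by them in other cells, was highest in PD03 and DMSO, the groups without CHIR99021. The log2 signal of Skil was 9.20, 9.25 and 9.34 in 2iLIF, 9.75, 9.79 and 9.65 in 2i, 9.85, 9.86 and 9.85 in CHIR, and 10.06, 10.06 and 10.13 in PD03, against 10.02, 10.09 and 10.23 in DMSO. PD03 and DMSO overlapped, and 2iLIF lay below all other groups. It was lower with CHIR99021, by -0.26 ± 0.05 in CHIR minus DMSO (SE, adjusted p = 0.00215) and by -0.36 ± 0.05 in 2i minus PD03 (adjusted p = 0.000168), while PD03 minus DMSO was -0.03 ± 0.05 (95% interval -0.14 to 0.08). In 2iLIF minus 2i it was lower by -0.46 ± 0.05 (1.38-fold, adjusted p = 1.75e-05). Over the 15 arrays Skil had a Pearson correlation of -0.67 with Nodal and -0.84 with Smad7, whereas Nodal had 0.87 with Lefty1, 0.94 with Lefty2 and 0.86 with Smad7. These correlations describe arrays that fall into 5 treatment groups.

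**Figure D3:**
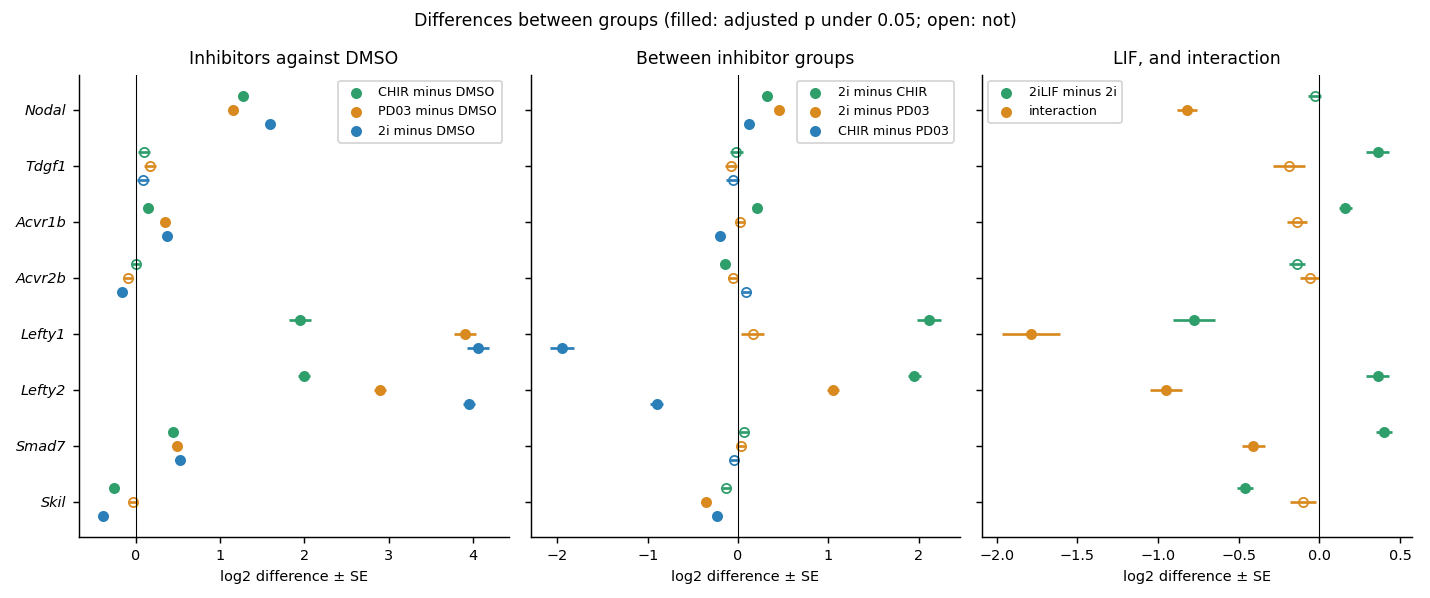
Log2 difference ± SE (horizontal axis) for each gene (rows) in the 8 comparisons, with filled points for limma adjusted p under 0.05. Lefty1 and Lefty2 extend to 4.06 and 3.95 in 2i minus DMSO, and in 2iLIF minus 2i Lefty1 and Skil lie to the left of 0 while Tdgf1, Acvr1b, Lefty2 and Smad7 lie to the right.

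Counted over the 8 genes, CHIR minus DMSO had 5 higher (Nodal, Acvr1b, Lefty1, Lefty2 and Smad7) and 1 lower (Skil), where 10.0% of all genes were higher and 10.8% lower. PD03 minus DMSO had the same 5 higher and 0 lower (8.67% and 8.15% of all genes). By limma 0 of the 8 were lower there at an unadjusted p under 0.05. In 2i minus DMSO these 5 were higher and Skil and Acvr2b lower (13.6% and 11.9% of all genes). Lefty1, Lefty2 and Nodal were 2-fold or more above DMSO in each of the 3 comparisons, as were 0.341% of all genes in CHIR, 0.241% in PD03 and 0.502% in 2i. These comparisons share the DMSO arrays. Because the 8 genes were chosen with earlier results of these data known, the shares of all genes here and below are description and not a test. The median log2 difference of the 8 was 0.30, 0.42 and 0.44 in CHIR, PD03 and 2i, against -0.01, 0.00 and 0.02 for all genes. In 2i minus CHIR, 4 were higher (Nodal, Acvr1b, Lefty1 and Lefty2) and 1 lower, with 5.70% and 3.76% of all genes. In 2i minus PD03, Nodal and Lefty2 were higher and Skil lower, with 10.1% and 9.44% of all genes. In CHIR minus PD03, Nodal was higher and Acvr1b, Lefty1, Lefty2 and Skil lower, with 12.6% and 13.2% of all genes. In 2iLIF minus 2i, 4 were higher (Tdgf1, Acvr1b, Lefty2 and Smad7) and 2 lower (Lefty1 and Skil), with 4.56% and 7.66% of all genes.

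On the log2 scale the inhibitors together gave less than the sum of their single effects for Nodal, Lefty1, Lefty2 and Smad7, of which Lefty2 turned on a linear scale. The interaction is the effect of CHIR99021 with PD0325901 (2i over PD03) less its effect without it (CHIR over DMSO). It was -0.82 ± 0.06 for Nodal (SE, limma adjusted p = 1.73e-06), -1.79 ± 0.18 for Lefty1 (adjusted p = 5.61e-05), -0.95 ± 0.10 for Lefty2 (adjusted p = 5.47e-05) and -0.41 ± 0.07 for Smad7 (adjusted p = 0.00716). The value of Lefty1 was the lowest among the 19937 genes. Thus 4 of the 8 were lower and 0 higher in this comparison, against 1.10% and 0.933% of all genes, with 0 higher at an unadjusted p under 0.05 by limma. The other 4 had values between -0.19 and -0.06 with adjusted p from 0.325 to 0.803. A negative interaction was not confined to the Nodal genes. Of the ES cell markers, Nanog (-0.57, limma adjusted p = 0.000109) and Zfp42 (-0.50, limma adjusted p = 0.0027) passed as well. Pou5f1, Sox2, Dppa5a and Esrrb did not. Single effects summed to 2.42 for Nodal, 5.85 for Lefty1, 4.90 for Lefty2 and 0.93 for Smad7, while 2i minus DMSO was 1.59, 4.06, 3.95 and 0.52. On the linear scale, an alternative chosen after seeing the data, the interaction of Lefty2 turned its direction to 236 ± 43 signal units (SE), with means of 730 in 2i, 189 in CHIR and 352 in PD03, against 47 in DMSO. That of Lefty1 was -89 ± 67 on this scale, within 2 SE of 0, while Nodal stayed at -258 ± 34 and Smad7 at -167 ± 33.

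**Figure D4:**
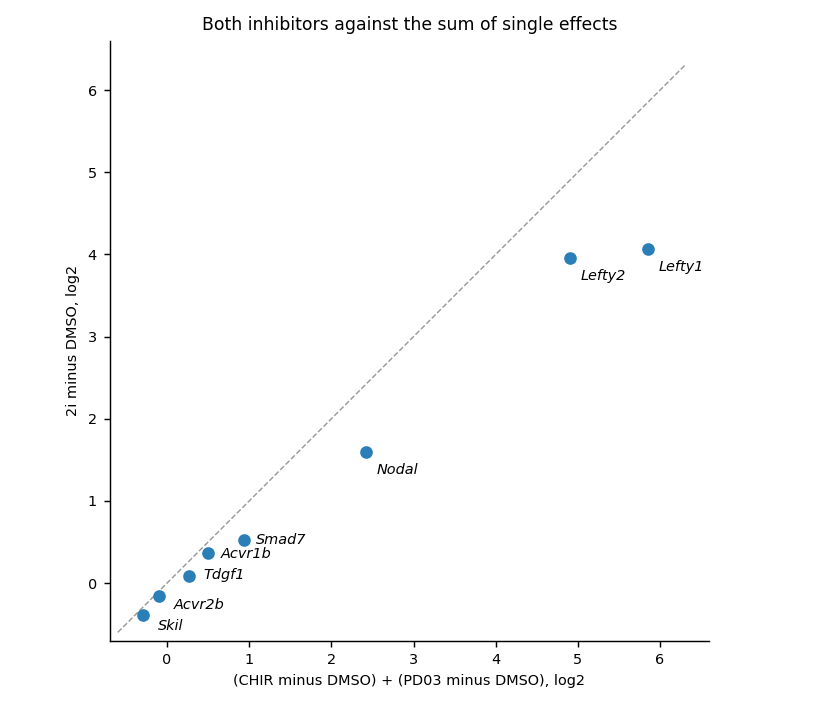
Log2 difference of 2i minus DMSO (vertical axis) against the sum of CHIR minus DMSO and PD03 minus DMSO (horizontal axis) for the 8 genes, with a dashed line where both are equal. Lefty1, Lefty2 and Nodal lie below the line, at 4.06 against 5.85, 3.95 against 4.90 and 1.59 against 2.42.

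Other genes of the Nodal and activin pathway were taken from a list of 41, of which 37 were measured. This list too was made with earlier results of these data known. In CHIR minus DMSO 8 of the 37 were higher and 10 lower, where 10.0% and 10.8% of all genes were. In PD03 minus DMSO 8 were higher and 2 lower (8.67% and 8.15% of all genes), and in 2i minus DMSO 11 were higher and 8 lower (13.6% and 11.9%). In 2iLIF minus 2i 6 were higher and 6 lower (4.56% and 7.66%). Since members went both ways, their median log2 difference was -0.01, 0.02, -0.01 and -0.02 in these comparisons. The median of the absolute difference was 0.12, 0.09, 0.12 and 0.07 for the list, against 0.06, 0.06, 0.07 and 0.05 for all genes.

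Among ligands and their processing, the proprotein convertase gene Pcsk6 (Pace4), whose product cleaves Nodal precursor, averaged 10.58 ± 0.04 in 2iLIF, 10.46 ± 0.01 in 2i, 9.94 ± 0.05 in CHIR and 9.83 ± 0.06 in PD03, against 9.15 ± 0.04 in DMSO (SD, n = 3 each). Its order of groups matched that of Nodal except between 2iLIF and 2i, and 2i minus DMSO was 1.31 ± 0.04 (SE, 2.47-fold, adjusted p = 2.89e-12). The other convertase gene, Furin, averaged between 8.33 and 8.39 in all groups. Gdf3, a Nodal-related ligand, was higher in PD03 minus DMSO by 0.20 ± 0.04 (adjusted p = 0.00127). Inhbb, which encodes an activin subunit, was lower with CHIR99021, by -0.46 ± 0.08 in CHIR minus DMSO (adjusted p = 0.000494) and -0.61 ± 0.08 in 2i minus PD03 (adjusted p = 4.02e-05). Tgfb1 was higher in 2iLIF minus 2i by 0.38 ± 0.06 and in CHIR minus DMSO by 0.36 ± 0.06.

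Among the effectors, Smad2 averaged between 10.10 and 10.15 and Smad4 between 11.04 and 11.12 in the 5 groups, and neither passed in any of the 8 comparisons. Smad3 was lower with CHIR99021, by -0.35 ± 0.04 in CHIR minus DMSO (SE, adjusted p = 7.93e-06) and -0.23 ± 0.04 in 2i minus PD03 (adjusted p = 0.000665). Trim33, a chromatin reader that binds Smad2 and Smad3, averaged 10.74 in 2iLIF, 10.89 in 2i, 11.03 in CHIR and 11.08 in PD03, against 11.32 in DMSO, and 2i minus DMSO was -0.43 ± 0.04 (adjusted p = 2.58e-07). Foxh1, the forkhead partner of Smad2, was lower in 2iLIF minus 2i by -0.23 ± 0.03 (adjusted p = 0.000196) and in 2i minus DMSO by -0.16 ± 0.03 (adjusted p = 0.00213).

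Of the inhibitors, Pmepa1, a TGF-beta induced protein that sequesters Smads, differed more with PD0325901 than with CHIR99021, as Lefty1 did. It averaged 9.34 ± 0.04 in 2iLIF, 8.91 ± 0.03 in 2i, 8.33 ± 0.13 in CHIR and 9.03 ± 0.05 in PD03, against 8.03 ± 0.06 in DMSO (SD, n = 3 each). PD03 minus DMSO was 1.00 ± 0.06 (SE, adjusted p = 4.48e-09), and CHIR minus PD03 was -0.70 ± 0.06 (adjusted p = 1.48e-07). CHIR minus DMSO passed too, at 0.30 ± 0.06 (limma adjusted p = 0.000909), and the interaction was -0.43 ± 0.08 (limma adjusted p = 0.0081). In 2iLIF minus 2i Pmepa1 was higher, by 0.43 ± 0.06 (limma adjusted p = 5.56e-05), where Lefty1 was lower. Fst (follistatin), which binds activin, was high in CHIR alone, at 8.64 ± 0.22, against 7.66 ± 0.12 in DMSO (SD, n = 3 each). It was lower in 2i than in CHIR by -0.69 ± 0.09 (SE, adjusted p = 8.03e-05), with an interaction of -0.93 ± 0.12 (adjusted p = 0.00066). Smurf1, a ubiquitin ligase, was lower in 2i minus DMSO by -0.21 ± 0.04 and in 2iLIF minus 2i by -0.19 ± 0.04.

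Of the mesendoderm targets of Nodal, Eomes passed in each comparison with DMSO and in 2iLIF minus 2i. In PD03 minus DMSO its difference was 0.36 ± 0.10 (SE, limma adjusted p = 0.0201), and the arrays overlapped. Eomes averaged 9.59 ± 0.02 in 2iLIF, 8.66 ± 0.08 in 2i, 8.59 ± 0.13 in CHIR and 8.15 ± 0.04 in PD03, against 7.79 ± 0.28 in DMSO (SD, n = 3 each). It was higher in 2iLIF than in 2i by 0.92 ± 0.10 (SE, adjusted p = 1.13e-05) and in CHIR than in DMSO by 0.80 ± 0.10 (adjusted p = 2.77e-05). The streak markers Mixl1, Gsc and Mesp1 had means between 6.20 and 7.48, and of these Gsc passed in 2iLIF minus 2i (0.16 ± 0.04, adjusted p = 0.0241). The streak marker T was listed but not measured. Cer1, a secreted Nodal antagonist of the anterior endoderm, averaged between 5.48 and 5.54, below 6 in all groups, and Foxa2 averaged between 7.35 and 7.44.

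**Figure D5:**
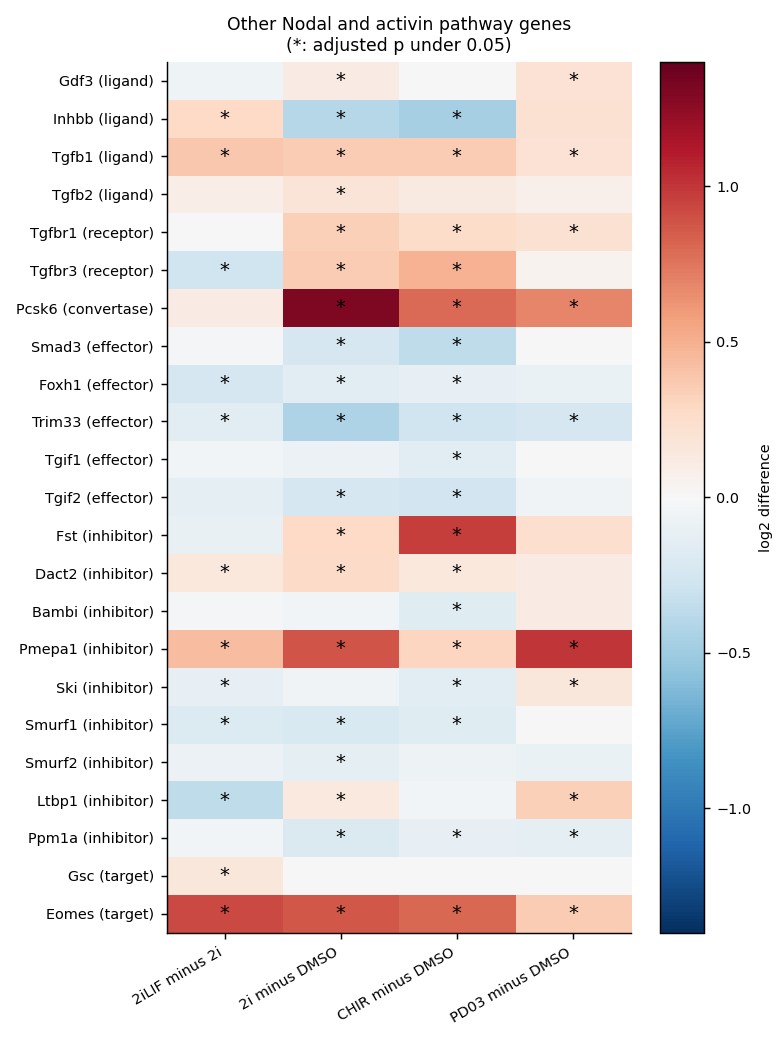
Log2 differences (colour scale) of the 23 other pathway genes that passed in 1 or more of the 4 comparisons drawn as columns, with rows ordered by role and stars for limma adjusted p under 0.05. Pcsk6, Pmepa1 and Eomes are higher in 2i minus DMSO by 1.31, 0.88 and 0.87, and Trim33 is lower in all 4 columns.

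Genes of like pattern were sought by Pearson correlation over the 15 arrays among 513 other genes with group means spanning 1 or more. Symbols of predicted genes (Gm or LOC with digits, and those with Rik) had been left out of the 513. Nearest to Nodal were Zfp819 (0.981), Slc6a15 (0.977) and the naive pluripotency factor Klf2 (0.971). Klf2 averaged 10.10, 10.04, 9.69 and 9.93 in 2iLIF, 2i, CHIR and PD03, against 8.73 in DMSO. Nearest to Lefty1 were the cytokine gene Osm (0.985), Ndrg1 (0.979) and the Wnt antagonist gene Sfrp1 (0.963), which averaged 11.84, 11.74, 10.89 and 11.89 in 2iLIF, 2i, CHIR and PD03, against 10.06 in DMSO. Nearest to Lefty2 were Prdm14 (0.994), Pdgfc (0.989) and Elf3 (0.985). Prdm14, a transcriptional regulator of naive pluripotency, averaged 9.74, 9.36, 8.44 and 8.97 in 2iLIF, 2i, CHIR and PD03, against 7.06 in DMSO, which is the order of groups seen for Lefty2. Negative interactions passed for Zfp819, Slc6a15, Klf2, Osm, Ndrg1, Sfrp1 and Prdm14, from -0.58 for Zfp819 to -0.99 for Prdm14. Those of Pdgfc and Elf3 were -0.24 and -0.27 and did not pass (limma adjusted p = 0.125 and 0.156). All these genes were taken because they correlate, and the arrays share their treatment groups, so a shared interaction is no separate evidence.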

How the data were processed

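Per the submitters' processing notes, the authors normalized the arrays by RMA, which corrects background, applies quantile normalization and summarizes probes; its version and the annotation build are not given in the sources used here. The deposited values are on the log2 scale, from 3.74 to 13.99 over 34760 probe sets, with array medians of 6.98 to 7.06. Quantile normalization removes changes shared by all genes, and no detection calls were used. The platform annotation gave 1 gene symbol to 21640 probe sets, several to 1321 and none to 11799, and 21553 of the single symbols were found in RefSeq. Probe sets with several symbols were left out, and 954 genes with several sets were represented by the set of highest overall mean, leaving 19937 genes.

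Groups were compared with limma 3.58.1 in R 4.3.3 (lmFit and eBayes on all 15 arrays), with Benjamini-Hochberg adjustment over all genes and a threshold of 0.05. Within-array differences of Lefty1 and Lefty2 were compared by exact permutation tests (scipy 1.17.1). The model was tested on simulated data. The 8 genes and the lists of pathway genes and markers were chosen with earlier results of these data known. The pathway genes named in the text are a choice among those that passed in a comparison. Others that passed are not described there, among them Tgfbr1, Tgfbr3, Ltbp1, Dact2 and Ski. Those named without passing (Furin, Smad2, Smad4, Mixl1, Cer1 and Foxa2) were picked after their values were seen. Of the 41 listed pathway genes, 37 were measured and the rest were not analysed here. Alternatives were a replicate block, leaving out each array, a filter on low values, median centring, other eBayes settings, a fit on the compared groups alone, the mean over a gene's probe sets and, for the interaction, a linear scale.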

Additional observations from a re-analysis of the deposited data

Results flagged for a closer look

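The effect of CHIR99021 differed with and without PD0325901 for 4 of the 8 genes by the interaction term of the limma model, in samples taken 24 h after LIF withdrawal. The effect with PD0325901 minus the effect without it was -0.82 ± 0.06 on the log2 scale for Nodal (SE, adjusted p = 1.73e-06). It was -1.79 ± 0.18 for Lefty1 (adjusted p = 5.61e-05), where CHIR99021 made a difference of 0.16 with PD0325901, against 1.95 without it. It was -0.95 ± 0.10 for Lefty2 (adjusted p = 5.47e-05), with 1.05 against 2.00, and -0.41 ± 0.07 for Smad7 (adjusted p = 0.00716), with 0.03 against 0.44. On the linear scale the value of Lefty2 turned direction, to 236 ± 43 signal units (SE), and that of Lefty1 was -89 ± 67, within 2 SE of 0.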

How the results depend on the processing

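Of 816 log2 differences of the 8 genes recomputed under alternatives, 791 kept their side of the threshold, 22 fell below it and 3 passed it. These include the mean over probe sets, which could not change the values of genes with 1 probe set each. The filter on low values could change only their p-values. No difference that passed turned direction in these, while some small differences below the threshold lie on either side of 0. The changed calls were of Nodal, Acvr1b, Acvr2b and Tdgf1, and those from left-out arrays are given beside those genes. On the linear scale, an alternative chosen after seeing the data and without adjusted p-values, the interactions of 7 of the 8 genes kept their direction. That of Lefty2 turned to 236 signal units, and that of Lefty1, the lowest of all genes on the log2 scale at -1.79, was -89 and within 2 SE of 0. This scale compares absolute in place of proportional differences. Outside the left-out arrays, Acvr2b in 2i minus CHIR was lost with trend and robust settings (adjusted p = 0.0519) and on the compared groups alone (0.0923), where Acvr1b in 2iLIF minus 2i was lost too (0.0544), and Acvr2b in 2iLIF minus 2i passed with the filter on low values (0.0442). Counts of calls stayed within 1.5 times the reported count, except that of all genes with an interaction. That count was 406, and leaving out 1 array gave 255 to 437, with 269 without PD03 replicate 1 and 255 without PD03 replicate 3. Lefty1 in PD03 minus DMSO ranged from 3.68 to 4.07 with 1 array left out.

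The replicate numbers did not pair the samples: residuals of the 30 same-numbered array pairs had correlations from -0.364 to 0.341, with 10 above 0.1. Of all arrays, 0 correlated best with their own number in every group. The 60 pairs of different numbers ranged from -0.432 to 0.443. Arrays of different numbers also shared residuals across the groups. All pairs among 2iLIF 1, 2i 1, CHIR 1, PD03 2 and DMSO 2 were positive, from 0.063 to 0.443. So were all pairs among 2iLIF 3, 2i 2, CHIR 2, PD03 1 and DMSO 3, from 0.13 to 0.373. These sets were picked after the values were seen, and their source was not tested. The replicate block does not model them. With the replicate block, 6 of the 8 genes passed in CHIR minus DMSO, 5 in PD03 minus DMSO, 7 in 2i minus DMSO, 4 in 2i minus CHIR, 3 in 2i minus PD03, 4 in CHIR minus PD03, 4 in the interaction and 6 in 2iLIF minus 2i. The counts over all genes in that order were 4007, 3229, 4944, 1780, 3756, 4999, 352 and 2348. The block lost Acvr2b in 2i minus CHIR (adjusted p = 0.0613) and Nodal in CHIR minus PD03 (0.0571). Signal near background limits Lefty2 in DMSO, and Lefty1 in DMSO replicate 1 (5.97) was also below the mark of 6.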

Other observations

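The genes next to Lefty1 on chromosome 1, in the RefSeq gene order of GRCm38.p6, also differed with PD0325901; they were chosen after their values were seen. Tmem63a averaged 8.83 in 2iLIF, 8.88 in 2i, 8.16 in CHIR and 9.18 in PD03, against 7.88 in DMSO. PD03 minus DMSO was 1.30 ± 0.06 for Tmem63a (SE, 2.46-fold, limma adjusted p = 4.24e-10), and its interaction was -0.58 ± 0.08 (adjusted p = 0.000949). Ephx1, which encodes a microsomal epoxide hydrolase, averaged 8.29 in 2iLIF, 7.65 in 2i, 7.01 in CHIR and 7.62 in PD03, against 6.90 in DMSO. PD03 minus DMSO was 0.72 ± 0.07 for Ephx1 (adjusted p = 1.50e-06), while CHIR minus DMSO was 0.11 ± 0.07 (adjusted p = 0.334). In 2iLIF minus 2i, Ephx1 was higher by 0.64 ± 0.07 (adjusted p = 7.90e-06) and Tmem63a differed by -0.05 ± 0.06 (adjusted p = 0.729), where Lefty1 was lower by -0.78 ± 0.13.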
